A study of Homo sapiens with 3 samples.

Results

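The regions described here are stretches of open chromatin at the ends of long non-coding RNA (lncRNA) genes that lie away from protein-coding genes. They come from the assay for transposase-accessible chromatin with sequencing (ATAC-seq), in which the Tn5 transposase cuts open chromatin and the cut sites are sequenced. The cells were neurons made from KOLF2.1J, a human induced pluripotent stem cell line used as a reference line, by way of human NGN2, a proneural transcription factor that drives stem cells to a neuronal fate. How NGN2 was switched on is not given in the sources used here. They were taken at day 14 of differentiation as 3 biological replicates, and all 3 samples form 1 group of 1 genetic background with no untreated or undifferentiated control. The deposited data are 1 list of regions for the 3 replicates together, so no value below has a spread over replicates and no test over samples could be made. Of 65234 distinct regions, 2564 (3.93%) were members: the midpoint of the region was within 1 kb of an outer end of a lncRNA gene and more than 5 kb from each outer end of every protein-coding gene in the RefSeq table of assembly GRCh38.p14. For comparison, 12707 regions (19.5%) were within 1 kb of a coding gene end, 44295 (67.9%) were more than 5 kb from coding ends and more than 1 kb from lncRNA ends (other distal regions), and 5668 (8.69%) fell in between. The members lay at ends of 2523 of the 18303 lncRNA genes in the table. Their number depends on the rule, being 6078 with each summit as its own entry and 1207 when only lncRNA genes with a curated transcript are used.

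A lncRNA gene is transcribed, usually by RNA polymerase II, into a long RNA that is not known to be translated. Some of these RNAs act in the nucleus as scaffolds or in silencing of neighbouring genes, and some serve mainly as carriers from which microRNAs or small nucleolar RNAs are cut. An active promoter is kept free of nucleosomes and is seen in ATAC-seq as an open region over the transcription start, whereas open regions far from starts are often enhancers or insulators. Many lncRNAs start next to a coding gene and share its open promoter, and regions near coding ends are left out here. Many promoters overlap CpG islands, stretches rich in G and C in which the dinucleotide CpG is not depleted.

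The promoters below are shown because they belong to the members with the most tags at a listed start in each of 4 groups, of which the last shows 1 gene and the others 2: lncRNA genes known from neural tissue, widely expressed lncRNA genes, microRNA host genes and genes named LINC. Each runs 5′ to 3′ on the strand of the gene, from 250 bases before the start to 50 bases after it, and is taken from RefSeq on GRCh38.p14. Capitals mark matches, on either strand, to any of 12 words searched: the proneural E-box CAGATG, the second E-box form CAGCTG, the third E-box form CACGTG, the homeodomain word TAATTA, the octamer ATGCAAAT, the cyclic AMP response element TGACGTCA, the GC box GGGCGG, the CCAAT box named for its letters, the TATA box word TATAAA, the NRF1 word GCGCATGC, the YY1 word AAGATGGC and the ETS factor word CCGGAAGT. Matches may overlap, and a match is a description of the letters, not a bound site.
SNHG11, chr20:38446404-38446703, plus strand: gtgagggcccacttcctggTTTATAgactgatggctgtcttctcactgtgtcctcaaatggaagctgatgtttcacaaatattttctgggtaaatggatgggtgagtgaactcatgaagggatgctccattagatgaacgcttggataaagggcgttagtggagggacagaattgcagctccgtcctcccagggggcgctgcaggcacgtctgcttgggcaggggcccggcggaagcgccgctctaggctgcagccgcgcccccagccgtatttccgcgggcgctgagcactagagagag
MIR9-3HG, chr15:89361329-89361628, plus strand: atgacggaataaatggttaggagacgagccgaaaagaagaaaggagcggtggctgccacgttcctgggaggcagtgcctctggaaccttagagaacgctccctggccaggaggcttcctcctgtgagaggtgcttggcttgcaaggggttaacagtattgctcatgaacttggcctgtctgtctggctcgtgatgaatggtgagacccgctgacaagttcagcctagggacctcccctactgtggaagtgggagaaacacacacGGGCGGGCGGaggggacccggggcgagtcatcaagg
SNHG5, chr6:85678684-85678983, minus strand: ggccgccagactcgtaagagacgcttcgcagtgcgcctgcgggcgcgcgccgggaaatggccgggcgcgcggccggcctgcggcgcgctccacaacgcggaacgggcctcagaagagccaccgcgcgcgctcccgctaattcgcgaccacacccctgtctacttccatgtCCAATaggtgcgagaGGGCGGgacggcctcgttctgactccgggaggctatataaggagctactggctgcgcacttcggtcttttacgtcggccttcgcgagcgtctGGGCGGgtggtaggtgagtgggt
MALAT1, chr11:65497488-65497787, plus strand: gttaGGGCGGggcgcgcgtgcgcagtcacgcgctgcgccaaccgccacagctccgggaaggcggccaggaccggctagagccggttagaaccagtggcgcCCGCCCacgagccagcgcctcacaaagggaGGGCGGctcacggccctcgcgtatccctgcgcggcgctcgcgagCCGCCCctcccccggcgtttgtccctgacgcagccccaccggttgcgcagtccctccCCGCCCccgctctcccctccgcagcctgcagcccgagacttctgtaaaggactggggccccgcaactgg
MIRLET7A1HG, chr9:94166008-94166307, plus strand: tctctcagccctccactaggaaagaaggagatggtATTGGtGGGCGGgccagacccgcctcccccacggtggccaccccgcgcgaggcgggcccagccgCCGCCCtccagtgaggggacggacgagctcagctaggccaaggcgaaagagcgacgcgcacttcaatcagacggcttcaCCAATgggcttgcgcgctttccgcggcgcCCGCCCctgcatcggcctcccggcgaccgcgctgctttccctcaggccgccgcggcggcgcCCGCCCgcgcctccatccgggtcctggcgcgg
MIR17HG, chr13:91347437-91347736, plus strand: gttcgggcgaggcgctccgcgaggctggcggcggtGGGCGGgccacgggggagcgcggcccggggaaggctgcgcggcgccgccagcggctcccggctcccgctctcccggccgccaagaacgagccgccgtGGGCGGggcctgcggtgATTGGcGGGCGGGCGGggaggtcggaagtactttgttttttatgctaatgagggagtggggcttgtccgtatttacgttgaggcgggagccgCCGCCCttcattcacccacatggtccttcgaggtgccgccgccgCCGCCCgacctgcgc
LINC03015, chr7:149389-149688, minus strand: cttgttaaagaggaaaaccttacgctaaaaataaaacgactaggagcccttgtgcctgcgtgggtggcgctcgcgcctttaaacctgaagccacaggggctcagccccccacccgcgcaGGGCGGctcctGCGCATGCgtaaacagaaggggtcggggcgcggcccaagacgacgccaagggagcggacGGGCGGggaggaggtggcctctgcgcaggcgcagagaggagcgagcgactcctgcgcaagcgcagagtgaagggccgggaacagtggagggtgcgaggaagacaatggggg

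The GC box occurred in 6 of these 7 promoters, all but that of SNHG11. The MALAT1, MIRLET7A1HG and MIR17HG promoters were the richest in G and C of the 7, with 73.7%, 72.7% and 73.0%. SNHG11, MIR9-3HG and LINC03015 had 57.0%, 57.7% and 64.7%, and SNHG5 had 67.7%. No match to an E-box word was found in any of the 7, which says only that these letters are not in these windows. The strongest summit of the region lay within the 300 bases shown for SNHG11, SNHG5, MALAT1, MIRLET7A1HG and MIR17HG, between 21 and 227 bp upstream of the start. For LINC03015 it lay 90 bp downstream and for MIR9-3HG 873 bp downstream, beyond the bases shown. The MIR9-3HG region, chr15:89361763-89362714, begins after the last base shown, so the bases shown for that gene lie outside it. SOX2-OT, a neural gene not shown, had the same 572 tags at its start as MIR9-3HG. The LINC03015 region also covers the start of LINC03014, which runs the other way on the same DNA.

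Accessibility is given on 2 scales. Fold enrichment is the authors' ratio of signal at the strongest summit of a region over its local background, and the tag count is the number of sequence tags at that summit, recovered from the deposited ratio and p-value. Tag counts carry exact Poisson 95% intervals and shares carry Wilson 95% intervals. Both cover counting error only, since PCR copies are not independent molecules and the spread between replicates is unknown. At the member median of 270.5 tags counting error is 6.08%, and it runs from 11.0% for the weakest member (82 tags) to 1.82% for the strongest (3024 tags). More open chromatin per cell and more cells with the region open cannot be told apart in such bulk samples.

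Regions at lncRNA ends were intermediate between those at coding ends and other distal regions. Median fold enrichment was 5.95 in members (quartiles 4.24 and 8.49), 9.78 at coding ends (6.19 and 13.0) and 5.17 in other distal regions (4.00 and 7.08). The median tag count was 270.5 in members (167 and 486), 840 at coding ends (414 and 1347) and 195 in other distal regions (141 and 302). Members had a median width of 952 bp, against 1285 bp at coding ends and 799 bp in other distal regions. A single summit was listed for 28.4% of members, 13.7% of coding-end regions and 39.1% of other distal regions. The highest deposited score, 1000, was given to 1992 members (77.7%, interval 76.0 to 79.3%), against a background of 73.7% over all 65234 regions, 93.2% at coding ends and 67.8% of other distal regions. The 3 classes overlapped widely. Tags reached the coding-end median in 294 members (11.5%) and in 3.02% of other distal regions. The other distal median was not exceeded by 882 members (34.4%).

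The position of members between the other classes recurred across the autosomes. Against coding ends, the difference of medians over all chromosomes was -0.72 in log2 fold enrichment and -1.63 in log2 tags, and both were negative on 22 of 22 autosomes (mean -0.73 ± 0.09 and -1.65 ± 0.23, SD over autosomes). Against other distal regions, log2 tags were higher by 0.47 and positive on 22 of 22 autosomes (0.45 ± 0.13). Log2 fold enrichment was higher by only 0.20 and was positive on 21 of 22 autosomes (0.17 ± 0.10), with -0.04 on chromosome 22. Autosomes are not replicates, so these counts describe how even the differences were within 1 pooled list. Taking each summit of a region as its own entry shrank the fold enrichment differences, to -0.17 against coding ends and 0.04 against other distal regions, and the tag difference against coding ends moved to -1.0. With a window of 2 kb in place of 1 kb the fold enrichment difference against other distal regions was 0.12.

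**Figure D1:**
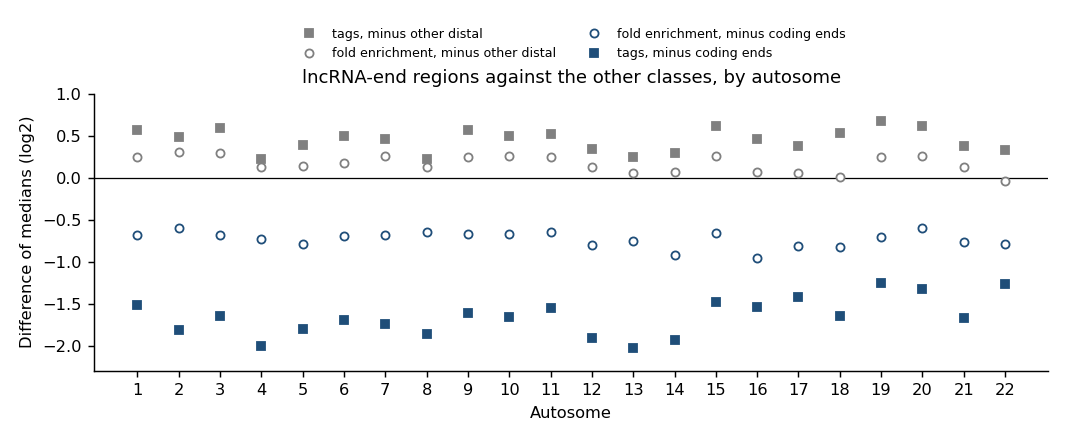
Difference between the median of lncRNA-end regions and the median of another class on each autosome (x axis), on the log2 scale (y axis). Squares are tags at the summit and open circles are fold enrichment, in blue against coding ends and in grey against other distal regions. Blue points are below 0 on all 22 autosomes, grey squares are above 0 on all 22, and the grey circle of autosome 22 is below 0.

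The 2 outer ends of a gene are its start and its far end, where transcription stops. Strand was listed for 62.6% of lncRNA genes, and 1853 members had it for every lncRNA gene in their window. Of these, 1380 (74.5%, interval 72.4 to 76.4%) were at a start. These were 1301 at a start only and 79 at both a start and a far end, while 473 were at a far end only and 711 further members had no strand listed. Regions at a start only were stronger than those at a far end only, with median tags of 311 (quartiles 184 and 578) against 220 (145 and 348), fold enrichment of 6.31 against 5.24 and width of 1055 bp against 808 bp. The start was above the far end on 21 of 21 autosomes in each of the 3 measures (log2 tags 0.54 ± 0.30, log2 fold enrichment 0.32 ± 0.20, SD over autosomes). The remaining autosome has no listed strands. Some members lie within 1 kb of a listed inner start of a coding gene. Without them, median tags were 284 at starts (n = 1150) and 214 at far ends (n = 466). Fold enrichment was then 6.11 and 5.22.

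Far-end regions were close to other distal regions in strength. Their difference from other distal regions was 0.02 in log2 fold enrichment, positive on 9 of 21 autosomes (-0.04 ± 0.21), and 0.17 in log2 tags, positive on 13 of 21 (0.13 ± 0.23). Tags reached the coding-end median in 10 of the 473 far-end regions (2.11%, interval 1.15 to 3.85%) and in 211 of the 1301 start regions (16.2%, 14.3 to 18.3%). Start regions were still weaker than coding-end regions, by -1.43 in log2 tags, with 0 of 21 autosomes positive. Within the start-only regions, the strongest summit was a median of 40 bp upstream of the start. It was upstream in 790 of them (60.7%) and within 250 bp of the start in 738 (56.7%).

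**Figure D2:**
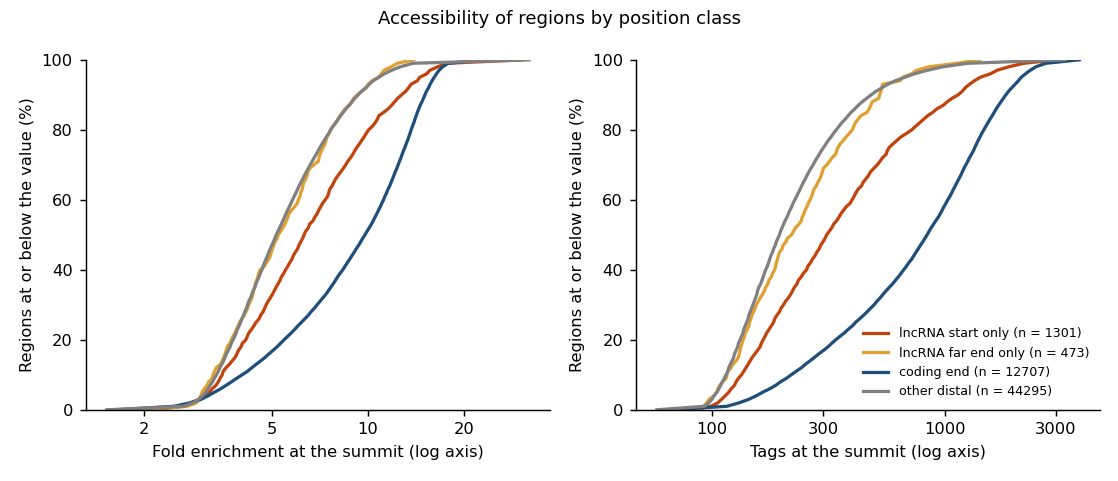
Share of regions (y axis, percent) with a value at or below that on the x axis, for fold enrichment (left) and tags at the summit (right), both on log axes. Regions at lncRNA starts only (red, n = 1301) run between coding ends (blue, n = 12707) and other distal regions (grey, n = 44295), and far-end regions (yellow, n = 473) run close to the grey line.

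Seen from the genes, a minority of lncRNA starts were open. Among 8189 lncRNA genes with a listed strand and a start more than 5 kb from coding ends, 1433 (17.5%, interval 16.7 to 18.3%) had a region within 1 kb of the start, against 52.0% over the starts of all genes with a listed strand and 67.3% of 15842 coding starts. At far ends of lncRNA genes the share was 545 of 9202 (5.92%, 5.46 to 6.42%), and at far ends of coding genes it was 7.50%. The lncRNA start share was above the far-end share on 21 of 21 autosomes (17.7 ± 3.45% and 5.87 ± 1.41%, SD over autosomes). Of the 6175 lncRNA genes of at least 3 kb whose ends both lay more than 5 kb from coding ends, 951 had a region at the start only, 255 at the far end only, 69 at both and 4900 at neither. The 3272 lncRNA starts within 5 kb of a coding end, which the rule leaves out, had a region in 64.5%.

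Around lncRNA starts the density of regions peaked narrowly, and no such peak was seen at far ends. Within 500 bp of the start there were 67.7 regions per 1000 genes per 500 bp, against 12.9 at distances of 5 to 10 kb, a ratio of 5.23. At far ends the values were 13.4 and 15.5, a ratio of 0.868. At coding starts they were 314 and 13.4, a ratio of 23.4. The distant levels around lncRNA starts and coding starts were thus alike, and the difference lay in the central bins.

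**Figure D3:**
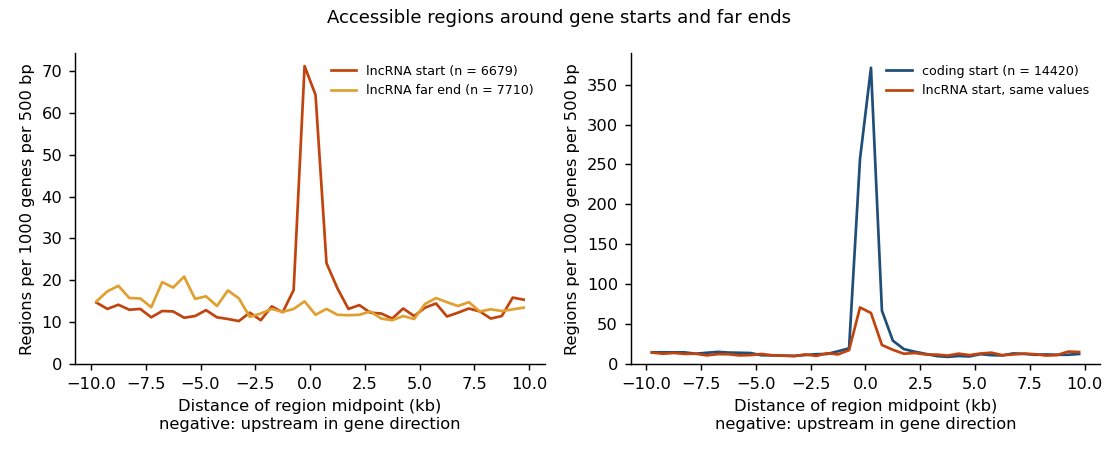
Density of region midpoints (y axis, regions per 1000 genes per 500 bp) by distance from a gene start or far end (x axis, kb, negative upstream in the direction of the gene), for genes of at least 3 kb. Left: lncRNA starts (red) rise to 71.1 in the 500 bp before the start, and far ends (yellow) stay between 10.5 and 20.9. Right: coding starts (blue) rise to 371 in the 500 bp after the start, with lncRNA starts repeated on that scale.

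The share of open starts differed between kinds of lncRNA gene. It was 24.3% (729 of 2995) for genes with a curated transcript and 13.6% (704 of 5194) for genes known only from predicted models. By name, it was 5 of 6 for small nucleolar RNA hosts (interval 43.6 to 97.0%), 13 of 22 for genes named as divergent transcripts (38.7 to 76.7%) and 24 of 49 for microRNA hosts (35.6 to 62.5%). Antisense genes had 26.9%, genes with other names 24.9%, LINC genes 21.2%, genes with LOC numbers 14.4%, and overlapping or intronic transcripts 7 of 56 (12.5%, interval 6.19 to 23.6%). The intervals of the 3 host and divergent classes are wide because these classes are small, and each lies above the LOC share of 14.4%. In strength, members at small nucleolar RNA hosts (n = 8) had median tags of 538, those at microRNA hosts (n = 35) 448, those at genes with other names (n = 136) 365 and those at antisense genes (n = 324) 314. Members at divergent transcripts (n = 38) had 278, those at LINC genes (n = 486) 267, those at LOC genes (n = 1523) 254 and those at overlapping or intronic transcripts (n = 14) 176. The shares above count starts only, while these medians also take in members at far ends and members with no strand listed. Some divergent and antisense members lay at an inner start of a coding gene, among them TAF12-DT, LRRC8C-DT, SLC25A28-DT and INKA2-AS1. The shares and medians by name include such starts and were not split by this. For divergent transcripts the median was near the member median of 270.5, but it does not give the strength of the 13 open starts alone. Members next to a curated lncRNA gene (n = 1188) had a median of 300.5 tags, and those next to a model only (n = 1376) 248. With 59.4% of members, the LOC class was the most numerous of the name classes.

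Open lncRNA starts more often had a CpG-rich promoter, defined as at least 50% G and C with a ratio of observed to expected CpG of at least 0.6 over the 300 bases. The outer start had a promoter sequence for 7863 lncRNA genes far from coding ends, of which 814 were CpG-rich. A region was present at 483 of the CpG-rich starts (59.3%, interval 55.9 to 62.7%) and at 913 of the 7049 others (13.0%, 12.2 to 13.8%). At coding starts the shares were 92.4% and 29.5%. Median tags were 578 at open CpG-rich lncRNA starts and 248 at other open lncRNA starts, against 1074 and 604 at coding starts. Put the other way, 34.6% of open lncRNA starts were CpG-rich, against 5.12% of lncRNA starts without a region, 84.7% of open coding starts and 46.9% of all 35116 promoters listed. Some of these lncRNA starts lie at a listed start inside a coding gene. Without them, a region was present at 363 of 685 CpG-rich lncRNA starts (53.0%, 49.2 to 56.7%) and at 879 of 6978 others (12.6%). Median tags were then 540 and 242.

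The relation was graded over GC content. The share of lncRNA starts with a region rose from 45 of 821 (5.48%) below 35% GC, through 14.9% at 45 to 50% GC and 21.0% at 55 to 60%, to 342 of 635 (53.9%) at 65% or more. Coding starts ran from 7.60% to 89.0% over the same bins. Intervals of the lncRNA and coding shares overlapped in the lowest GC bin and in no other bin. Median tags at open lncRNA starts ran from 175 in the lowest bin to 546 in the highest. GC content also affects PCR amplification and sequencing, and its part in these shares was not tested.

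**Figure D4:**
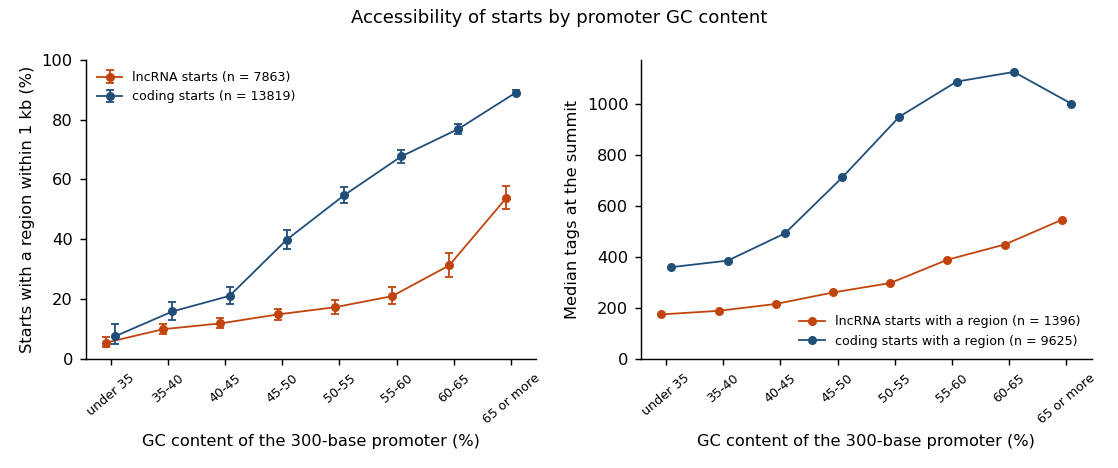
Left: starts with a region within 1 kb (y axis, percent, bars show Wilson 95% intervals) by GC content of the 300-base promoter (x axis, percent), for lncRNA starts far from coding ends (red, n = 7863) and coding starts (blue, n = 13819). Right: median tags at the summit (y axis) of the starts with a region. The lncRNA share runs from 5.48% to 53.9% and stays below the coding share in each bin.

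Of the 12 words, the GC box and the cyclic AMP response element had the widest ratios between lncRNA promoters with and without a region. Open here means a region with its midpoint within 1 kb of the start, so the promoter bases searched need not lie inside it. Among members at a start only, the strongest summit was within 250 bp of the start in 56.7%. Whether the words themselves lay in accessible DNA was not tested. GGGCGG was present in 34.4% of 1396 open lncRNA promoters, 10.2% of 6467 without a region and 45% of all promoters. TGACGTCA was present in 2.01%, 0.340% and 1.85%. For TGACGTCA these are small numbers, 28 open promoters and 22 without a region, and the shares were 3.31% against 0.302% among CpG-rich promoters and 1.31% against 0.342% among the others. GGGCGG was in 72.3% against 55.6% of CpG-rich promoters and in 14.3% against 7.77% of the others. CCGGAAGT was in 2.29% of open promoters, 0.711% of those without a region and 4.14% of all promoters. GCGCATGC was in 2.22%, 0.943% and 3.05%, but among CpG-rich promoters in 5.80% of open ones and 8.46% of those without a region. CACGTG was in 6.16%, 4.27% and 7.26%. Among CpG-rich promoters with and without a region, CCGGAAGT was in 5.38% and 3.63%, and CACGTG in 9.32% and 10.3%. Among the others CCGGAAGT was in 0.657% and 0.554%, and CACGTG in 4.49% and 3.94%.

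As above, open means a region within 1 kb of the start, which need not cover the bases searched. The proneural E-box CAGATG, a word bound by factors of the NGN2 family, was less frequent in open lncRNA promoters, with 16.4% against 22.6% of those without a region and 14.7% of all promoters. Within CpG-rich promoters it was in 8.28% against 13.6%, and in 20.7% against 23.1% of the others. CAGCTG was in 20.7%, 17.2% and 17.9% of the promoters with a region, those without and the full set. TATAAA was in 12.2%, 19.8% and 11.5%, TAATTA in 7.23%, 9.01% and 4.84%, and CCAAT in 33.5%, 37.0% and 34.6%. ATGCAAAT was in 2.36%, 2.26% and 1.77%, and AAGATGGC in 1.29%, 1.31% and 2.89%. For some words the order of open promoters and those without a region differed by CpG class. TATAAA was in 3.73% against 3.02% of CpG-rich promoters and 16.6% against 20.7% of the others. CCAAT was in 27.7% against 20.5% and in 36.5% against 37.9%. TAATTA was in 2.07% against 2.11% and in 9.97% against 9.39%. Base composition differs between these sets (median GC content 54.0% with a region and 45.3% without), and its part in the word shares was not tested.

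Of 25 neural lncRNA genes listed, 22 were found as lncRNA genes and 11 of them had a member at an end. A further 4 had a region within 5 kb of a coding end and 7 had none at an end. Over all 18303 lncRNA genes the share with a member was 13.8%, which takes in genes known only from predicted models. Starts of such genes had a region in 13.6%, against 24.3% for genes with a curated transcript. The list was picked by hand, with earlier results of these data known. All 3 hosts of miR-9, a microRNA of neural progenitors and neurons, had a member: 572 tags at MIR9-3HG (interval 526 to 621), 559 at MIR9-2HG (514 to 607) and 503 at MIR9-1HG (460 to 549). These 3 intervals overlap. Both listed hosts of miR-124, a neuron-enriched microRNA, had members, with 797 tags at the stronger of 2 regions of MIR124-2HG and 319 at MIR124-1HG. SOX2-OT, within which the SOX2 gene lies, had 572 tags and fold enrichment 10.7 at its start. RMST, a lncRNA known to bind SOX2 in neurogenesis, had 562 tags and fold enrichment 4.94. SOX1-OT had 490 tags, MIAT, a nuclear lncRNA of neurons, had 515, and LINC00632, whose locus gives rise to the circular RNA CDR1-AS, had 328. SNHG11, the small nucleolar RNA host shown above, had 576 tags and fold enrichment 10.5. Apart from MIR124-2HG, the neural members were thus between 319 and 576 tags, above the member median of 270.5 and below the coding-end median of 840. On the fold enrichment scale the picture differed: only 3 of the 11 (SOX2-OT, SNHG11 and MIR9-2HG with 9.50) were above the member median of 5.95. The other 8 were below it, from 2.64 at MIR124-1HG, 3.52 at MIR124-2HG, 3.53 at MIR9-3HG and 4.64 at MIR9-1HG to 5.34 at LINC00632, 5.65 at MIAT and 5.87 at SOX1-OT.

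Neural genes without a region at an end were MIR137HG, DLX6-AS1, MEG3, LINC01551, PAX6-AS1, OTX2-AS1 and NBAT1. Each held at least 1 region inside the gene, from 1 in DLX6-AS1 and NBAT1 to 4 in MEG3. PANTR1, SIX3-AS1, LHX1-DT and CASC15 had a region at an end that lay within 5 kb of a coding end and so was no member. TUNAR and EMX2OS are classed otherwise than lncRNA in the table, and NKX2-2-AS1 was not matched.

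Widely expressed lncRNA genes had a member in 11 of 18, beside the 13.8% over all lncRNA genes. Of the others, 5 had a region near a coding end and 2 had no region at an end. Of the 11, 10 were above the member median in tags and 9 in fold enrichment. The strongest were SNHG5, a small nucleolar RNA host, with 2437 tags (interval 2341 to 2536, fold enrichment 14.1), and MALAT1, an abundant RNA of nuclear speckles, with 1989 (1903 to 2078, fold enrichment 11.9). DANCR followed with 1792 tags and EPB41L4A-AS1 with 1151. These 4 exceeded the coding-end median of 840 tags. JPX and FTX, both of the X inactivation centre, had 749 and 396 tags. NORAD, which binds Pumilio proteins, had 650, and LINC-PINT, a p53 target, had 540 at its far end. CYTOR had 295 tags, NEAT1, the architectural RNA of paraspeckles, had 279, and PURPL, another p53 target, had 209. The interval of NEAT1 (247 to 314) includes the member median. The 11 genes thus ran from below that median (PURPL) to the 99.6 percentile of members (SNHG5). GAS5, SNHG1, SNHG8, ZFAS1 and CRNDE had a region within 5 kb of a coding end, and TUG1 is classed as coding in the table. OIP5-AS1 and SNHG12 had none at an end and each held 1 inside the gene.

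Imprinted lncRNA genes had a member in 2 of 12, beside the 13.8% over all lncRNA genes. KCNQ1OT1, which silences neighbouring genes on the paternal chromosome, had 844 tags (interval 788 to 903) and fold enrichment 9.84. MEG9, of the cluster that also holds MEG3, had 165 tags at its far end. SNHG14, the long transcript of the Prader-Willi region, had a region near a coding end. MEG3, MEG8, H19, AIRN, IPW, PWRN1, PWAR5, PWAR6 and PEG13 had none at an end, and GNAS-AS1 is classed as antisense RNA. Of those with none at an end, MEG3 held 4 regions inside the gene, MEG8 held 2, PEG13 held 1 and the rest held 0.

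Among 7 lncRNA genes of pluripotent cells, 1 had a member, which is near the share of 13.8% over all lncRNA genes. This was LNCPRESS1, with 82 tags (interval 65 to 102), the lowest count among the 2564. LINC-ROR, ESRG, LINC00678, LINC01108, LINC00458 and MIR302CHG, the host of the miR-302 cluster of stem cells, had none at an end. Inside the gene, MIR302CHG held 1 region and the rest of these held 0. Of 13 genes known from other tissues, BANCR had a member with 170 tags (145 to 198) and HOTTIP had a region near a coding end. The other 11 had none at an end: HULC, LINC01554, UCA1, PCA3, CARMN, FENDRR, HOTAIR, LINC00261, HAND2-AS1, MIR205HG and MIR155HG. Of these, HAND2-AS1 and MIR155HG each held 2 regions inside the gene, LINC01554 held 1 and the rest held 0. These lists were picked by hand and are small, so their counts are descriptions. Over all lncRNA genes, 13.8% had a member at an end.

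**Figure D5:**
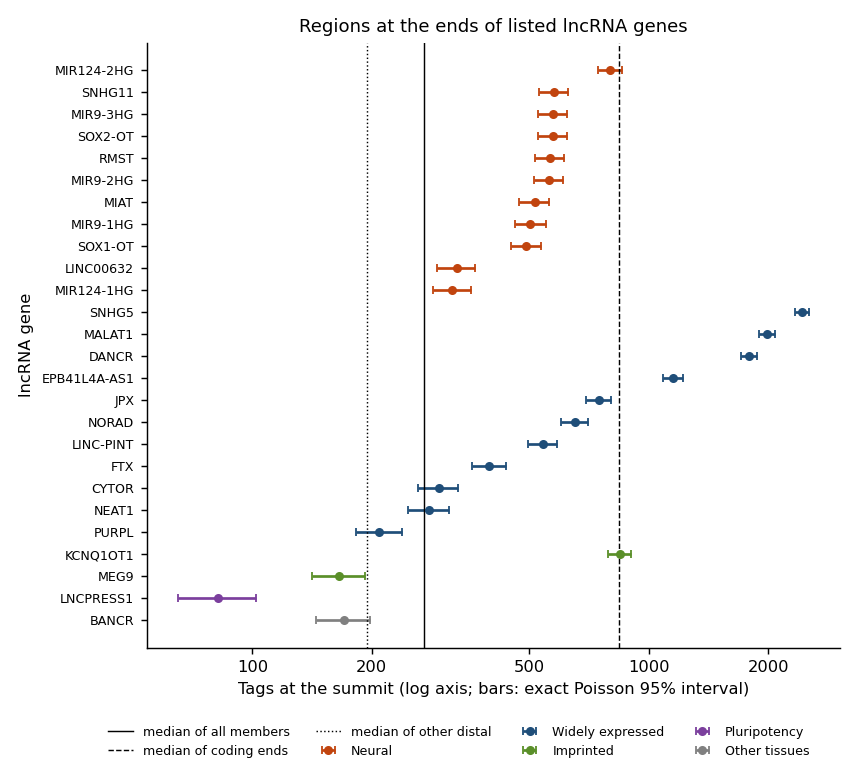
Tags at the summit (x axis, log axis, bars show exact Poisson 95% intervals) of the strongest member at each listed lncRNA gene (y axis), coloured by list. The lines mark the medians of all members (270.5), coding ends (840) and other distal regions (195). The neural genes lie between 319 and 797 tags, the widely expressed genes between 209 and 2437, and LNCPRESS1 lies lowest at 82.

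Coding marker genes of the cell types were checked for a region within 1 kb of an outer end or a listed start, which 71.2% of all coding genes had. A region was present at 10 of 10 neuronal markers, among them MAP2, TUBB3 and DCX. It was present at 4 of 5 markers of neural progenitors (VIM had none), at 4 of 5 of glia (GFAP had none) and at 2 of 5 of pluripotent cells (POU5F1, NANOG and TDGF1 had none). With so few genes a list, 4 of 5 is near the share over all coding genes. An open promoter is not a measure of expression, and the part of other cell types in the member values was not tested.

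A microRNA hairpin of the RefSeq microRNA table lay inside 38 of the lncRNA genes with a member. MIR124-1HG and MIR124-2HG were not among them. Both lie on the autosome without listed strands, and none of the 38 lay there. Whether the miR-124 hosts hold a hairpin could therefore not be decided here. The 44 members at the ends of the 38 genes had median tags of 473 and fold enrichment of 6.51, against 270.5 and 5.95 over all members. At most of the 38 genes the strongest member was at a start. All members at a start only had medians of 311 tags and 6.31 in fold enrichment, the latter near the 6.51 of the hosts. MIRLET7A1HG, which carries let-7a, let-7f and let-7d, had 2652 tags at its start (interval 2552 to 2755) in chr9:94165722-94167226. MIR17HG, which carries the miR-17 to miR-92a cluster of 6 hairpins and was first known from lymphomas, had 1671 (1592 to 1753). DLEU2, host of miR-15a and miR-16, had 1389. Between these and the miR-181a hosts lay MIR762HG with 1305 tags, MIR1915HG with 1283, MIR550A3HG with 1241, MIR130AHG with 1230 and STAG3L5P-PVRIG2P-PILRB with 1155, while DANCR, which holds miR-4449, had 1792. MIR181A1HG and MIR181A2HG had 1078 and 1038, and MIR99AHG, which carries let-7c, had 561. At the low end, MIR34AHG, host of the p53-induced miR-34a, had 202 tags, MIR193BHG had 162 and MIR3976HG had 100. The mature RNAs below (RefSeq, GRCh38.p14, 5′ to 3′) are shown because several share a seed or a mature form within or between hosts. They were picked for that and not by the tags of their hosts, with the seed (bases 2 to 8) in capitals.
hsa-let-7a-5p (MIRLET7A1HG): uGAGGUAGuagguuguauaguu
hsa-let-7f-5p (MIRLET7A1HG): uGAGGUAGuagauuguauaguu
hsa-let-7d-5p (MIRLET7A1HG): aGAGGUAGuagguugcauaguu
hsa-let-7c-5p (MIR99AHG): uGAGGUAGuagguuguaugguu
hsa-miR-17-5p (MIR17HG): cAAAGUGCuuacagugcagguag
hsa-miR-20a-5p (MIR17HG): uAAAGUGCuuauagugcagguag
hsa-miR-18a-5p (MIR17HG): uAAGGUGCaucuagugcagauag
hsa-miR-15a-5p (DLEU2): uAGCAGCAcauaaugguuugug
hsa-miR-16-5p (DLEU2): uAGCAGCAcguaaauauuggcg
hsa-miR-181a-5p (MIR181A1HG, MIR181A2HG): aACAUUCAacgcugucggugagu
hsa-miR-9-5p (MIR9-1HG, MIR9-2HG, MIR9-3HG): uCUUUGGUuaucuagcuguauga

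By seed these fall into groups: the 4 let-7 RNAs share GAGGUAG over 2 host genes, miR-17 and miR-20a share AAAGUGC, and miR-15a and miR-16 share AGCAGCA. The seed of miR-18a, AAGGUGC, stands apart from that of miR-17 in the same host. The 2 hosts of miR-181a lie on chromosomes 1 and 9, and the intervals of their tags (1015 to 1144 and 976 to 1103) overlap. The level of a mature microRNA was not measured here.

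The 10 members with the highest fold enrichment and the 10 with the most tags had 0 regions in common, and the top 100 of each had 37. LOC105372952 led in fold enrichment with 30.6 (925 tags, chr22:22297807-22298649) over a background of 29.2 tags, the lowest in the list. Many regions share this lowest background, which was also the lower quartile of other distal regions. LINC02021 followed with 25 (1265 tags), LINC03009 with 23.3 (1239), LINC01409 with 22.7 (1363) and LOC100132249 with 22.2 (1835). ZNF790-AS1 had 19.8 (926 tags), JPX 19.8, LOC124902274 19.2, and LINC01572 and LOC100630923 19.1 each. The 9 of these other than LINC02021 were at a listed start, and each had its summit within 111 bp of it. All 10 were above at least 99.8% of coding-end regions in fold enrichment, but in tags they were between the 44.8 and 90.1 percentiles of that class.

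LOC101929626 led in tags with 3024 (interval 2917 to 3134, fold enrichment 11.8) in chr1:46132363-46133663, within the coding gene PIK3R3 and at an inner start of it. SLC25A28-DT followed with 2838 tags at an inner start of SLC25A28. The other 8 were LOC105375782 with 2679 tags, MIRLET7A1HG with 2652, LINC00663 with 2578, LOC112267988 with 2553, LOC112268218 with 2535, LINC03015 with 2535, LINC01003 with 2448 and SNHG5 with 2437. Their local backgrounds were between 146 and 256 tags, several times the member median of 44.0. LOC112268218 was 5.02 kb from the nearest coding end (NADK), just beyond the 5 kb limit.

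The outer ends of coding genes miss starts that lie inside a gene. Of the members, 184 (7.18%) lay within 1 kb of a listed inner start of a coding gene, and so did 2.71% of other distal regions. These 184 had median tags of 673 and fold enrichment of 8.10, against 258 and 5.80 in the other 2380. They made up 30 of the top 100 members by tags and 23 of the top 100 by fold enrichment. Without them the difference from other distal regions was 0.40 in log2 tags (positive on 22 of 22 autosomes) and 0.17 in log2 fold enrichment (21 of 22). Inner starts were listed only for the coding genes in the promoter table (79.1%), so some may be missed. A further overlap, with ends of genes of other kinds such as pseudogenes, concerned 117 members (4.56%), which had median tags of 515.

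Of all members, 765 (29.8%, interval 28.1 to 31.6%) lay inside a coding gene, with median tags of 300 against 259 for the 1799 outside. Without regions at inner coding starts, the 581 inside had a median of 248. Members were a median of 316 bp from the nearest lncRNA end and 42.3 kb from the nearest coding end, and 699 (27.3%) were more than 100 kb from any coding end. Regions close to the limits of the rule were alike on both sides. Those 750 to 1000 bp from a lncRNA end (n = 374) had median tags of 230.5, and those just outside, within the next 250 bp beyond the limit (n = 349), had 213. Those 5 to 6 kb from a coding end (n = 80) had 375, and regions at lncRNA ends 4 to 5 kb from one (n = 93) had 374. Members made up between 2.76% of regions (chromosome 19) and 5.36% (chromosome 22) on the autosomes.

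A few lncRNA genes held several members. EPCAM-DT, which runs for 153 kb, had 6, between 111 and 1521 tags. DLEU1 (446 kb), LINC03146 (20.9 kb) and NEPRO-AS1 (165 kb) had 4 each, with tags from 105 to 1719, 192 to 1021 and 255 to 551. ANXA2R-OT1 had 3, from 712 to 1081 tags, and is the first by name of 10 genes with 3. Several members of a gene were of very unequal strength, as in DLEU1, and they can lie at the ends of other lncRNA genes inside it.

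The study was designed around regulation of MAPT, the gene of the microtubule-associated protein tau. Within 1 Mb of MAPT on chromosome 17 there were 4 members, and 0 lay within the gene. LOC107987243 had 1 at each of its ends, with 240 tags in chr17:44987156-44988716 and 198 tags in chr17:45012883-45013881. FMNL1-AS1, inside the coding gene FMNL1, had 203 tags in chr17:45241140-45241973. KANSL1-AS1 had 1475 tags (interval 1401 to 1552, fold enrichment 9.39) in chr17:46192565-46194299, at an inner start of KANSL1 and 299 kb from the low-coordinate end of MAPT. The other 3 were below the member median of 270.5 tags, and KANSL1-AS1 was at the 97.0 percentile of members.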

How the data were processed

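ATAC-seq was done on 3 biological replicates at day 14, per the labels' protocols: Tn5 transposition of nuclei, cleanup and PCR. The authors deposited 1 narrowPeak list for all 3 replicates, named in the labels as optimal under IDR (irreproducible discovery rate, a filter on agreement of ranks). Genome build hg38 is per the submitters' processing notes. The aligner, peak caller, versions and filters are not given in the sources used here. Per entry, the authors deposited the fold enrichment as a linear ratio, the −log10 p and −log10 q, and a score of 540 to 1000 whose scaling is not given.

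The 145092 entries were merged by their bounds into 65234 regions, each with the values of its entry of highest −log10 p. Tag counts were the whole number that, under a Poisson upper tail with 1 added to tags and background, gave both the deposited ratio and the −log10 p. The largest misfit was 0.00079 units of −log10 p, and on 19820 simulated summits 100% were recovered. Depth per replicate is unknown. Gene ends came from the RefSeq gene table and strands, starts and promoters from the RefSeq promoter table (GRCh38.p14). A distal region was more than 5 kb from coding ends and more than 1 kb from lncRNA ends.

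No test was run, since no value per sample was analysed. Differences of medians are given per autosome. Named genes are those of the 5 lists, the 10 members highest in fold enrichment and in tags (autosomes and X), the 5 lncRNA genes with most members, members within 1 Mb of MAPT, and hosts of microRNAs, which were named after their values were seen. The members and lists were chosen with earlier results of these data known. Alternatives were windows of 500 bp and 2 kb, 2 or 10 kb kept from coding ends, the summit or any overlap as position, a score of at least 830, each summit entry, curated lncRNA genes and stricter comparison classes. Leaving out inner coding starts was added after the data were seen. Positions count from 1. Computations used Python 3.11.15, numpy 2.4.6, scipy 1.17.1 and pandas 2.3.3, and figures matplotlib 3.10.9.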

Additional observations from a re-analysis of the deposited data

How the results depend on the processing

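The 8 main results were recomputed under 12 alternatives, which gave 83 values. No difference of medians changed sign, and the number of members, the width and the shares have no sign that could change. In 64 the value stayed within 1 SD over autosomes (differences and width), within its counting interval (shares) or within 1.5 times (the number of members). The share of members at a start was 80.9% with a 500 bp window, 69.7% with 2 kb, 71.9% with any overlap, 78.5% with every summit entry, 76.6% with curated lncRNA genes and 72.4% without inner coding starts. The share of lncRNA starts with a region was 13.6%, 22% and 19.6% under the first 3 of these, 15.6% with a score of at least 830, 24.3% with curated genes and 15.9% without inner coding starts. Counting every summit entry gave 6078 members, log2 fold enrichment differences of -0.17 from coding ends and 0.04 from other distal regions, a log2 tag difference of -1.0 from coding ends and a median width of 1115 bp. Curated genes alone gave 1207 members and a log2 tag difference of 0.63 from other distal regions. Windows, overlap and scores change what is counted, and the cause of the other changes was not tested. No paired analysis was possible because there was 1 group with pooled values only, and leaving out a replicate was not possible either. Counting error of a single member (1 Poisson SD) was between 1.82% and 11.0%, which leaves out PCR copies and the spread between replicates.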
